A study of Rattus norvegicus with 50 samples.

Results

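The comparison described here set the lungs of male Fischer 344 rats that had inhaled nickel subsulfide (Ni3S2) at 0.04 mg/m3 for 1 week against those of rats kept in air without Ni3S2 for the same week. Its members were the 5 arrays labelled 0.04 mg/m3 and 1 week and the 5 labelled 0.0 mg/m3 and 1 week, which are 10 of the 50 arrays of the study. On these arrays all probe sets that the platform's gene table pairs with 1 gene symbol were used. They gave 13438 genes, each measured by its brightest probe set. The aerosol, about 0.03 mg Ni/m3, was the lowest of 4 concentrations, breathed 6 hours a day on 5 days, by animals that were 7 to 8 weeks old when they were received. Of the 13 animals in a group, 5 went to lavage and histology, 8 to expression and nickel burden, and the 5 with the best RNA were arrayed. RNA came from distal airway and alveolar tissue dissected from the right caudal lobe, 1 animal to an array. Other groups of the study breathed 0.08, 0.15 or 0.60 mg/m3 for 1 week, or the same concentrations for 4 weeks beside their own controls.

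Ni3S2 dissolves poorly in water and is a lung carcinogen in the rat. Particles that settle in the distal airways are taken up by macrophages and epithelial cells and release nickel ions inside them. Nickel ions can take the place of iron in oxygen-sensing and demethylating enzymes, and they are known to switch on genes of hypoxia and of oxidant defence. The distal lung holds alveolar type 1 cells, through which gas passes, alveolar type 2 cells, which make surfactant, and the club and ciliated cells of the small airways. It also holds a dense capillary bed, and muscle and lymphoid tissue around the airways and vessels.

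The labelled tissue was checked against its defining markers. The mean log2 value in the 5 controls was 13.4 for Sftpc (surfactant protein C, type 2 cells) and 11.7 for Ager (type 1 cells). It was 13.6 for Scgb1a1 (club cells), 10.4 for Foxj1 (ciliated cells) and 11.5 for Cldn5 (endothelium), on a scale that ran from 2.22 to 13.8 over the table. The macrophage marker Cd68 was at 7.90, and Marco, Cdh5 and Scgb3a2 had no probe set with 1 symbol. For comparison, probe sets with no symbol had a median between 4.09 and 4.19 on each of the 10 arrays.

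After 1 week at the lowest concentration many genes had shifted by small amounts. Of the 13438 genes, 3614 (26.9%) passed the test against controls, limma with Benjamini-Hochberg adjustment at an adjusted p of 0.05, and are called changed below. Of these, 2035 (15.1%) were higher and 1579 (11.8%) lower in exposed animals. The median size of a called change was 0.36 on the log2 scale, 385 called genes reached 1.5-fold and 29 reached 2-fold, 4 of them higher and 25 lower. The log2 values of all 5 exposed animals lay outside the range of all 5 controls for 1527 genes (11.4%), with 899 (6.69%) above and 628 (4.67%) below it. The counts leaned on single animals: without exposed replicate 4, 2261 genes were called, and without exposed replicate 5, 2327. A test against a change of at least 1.2-fold left 15 genes, 3 higher and 12 lower.

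Those 15 genes were a mixed group. The higher 3 were Hgfac (the activator of hepatocyte growth factor, change 1.01 on the log2 scale), Tmem116 (a membrane protein, 0.88) and Nopchap1 (a chaperone for the assembly of small nucleolar RNA particles, 0.61). The lower 12 were Cxcl13 (a B cell chemokine), Myh11 (smooth muscle myosin), Dock10, Prkcb, Nos1ap, Rps6ka5, Elk4, Trps1, Map3k1, Pdpk1, Abcc1 and Wdfy1. Several are kinases or transcription factors: Map3k1 (-0.81) and Pdpk1 (-0.74) are kinases near the head of growth factor cascades, Rps6ka5 (-0.97) is a kinase that acts in the nucleus, and Elk4 (-0.94) is a transcription factor that works with serum response factor. Abcc1 (-0.68, adjusted p = 1.71e-05) is a pump that exports glutathione conjugates. Wdfy1 (-0.62), a lipid-binding protein of endosomes, had the smallest adjusted p of all 13438 genes in this comparison (1.03e-06, limma).

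The largest rises with no overlap between the groups fell in genes of varied function, of which Tgm1 rose most. Tgm1, the transglutaminase that crosslinks the envelope of squamous epithelial cells, had log2 values of 5.00, 5.17, 5.32, 5.16 and 5.50 in control replicates 1 to 5 and 5.95, 6.40, 6.30, 6.20 and 6.56 in exposed replicates 1 to 5. Its mean went from 5.23 ± 0.19 to 6.28 ± 0.23 (SD, n = 5 each), a change of 1.05 (SE 0.34, 2.07-fold, limma adjusted p = 0.0202). Every exposed animal was above every control, but without exposed replicate 5 the change was 0.98 and the adjusted p 0.0526. Tmem116 was at 4.97, 4.94, 4.96, 4.94 and 5.15 in controls and at 5.36, 5.81, 6.10, 6.11 and 5.97 in exposed animals, a rise of 0.88 (SE 0.13, 1.84-fold, adjusted p = 3.64e-05). The controls lay close together and exposed replicate 1 was the lowest of its group. Serpina1 encodes alpha-1-antitrypsin, the main inhibitor of neutrophil elastase. It read 6.32, 6.58, 6.68, 6.46 and 6.64 in controls against 6.85, 7.29, 7.09, 7.21 and 7.94 (change 0.74, SE 0.16, adjusted p = 0.00147), with exposed replicate 5 well above the rest.

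A neuropeptide gene and a prostaglandin synthase were among these rises. Calca, which encodes calcitonin and the neuropeptide CGRP of sensory nerves and neuroendocrine cells, stood at 6.07, 5.87, 5.81, 5.71 and 6.01 in controls and 6.71, 6.84, 6.69, 6.73 and 6.38 in exposed animals, a rise of 0.77 (SE 0.20, adjusted p = 0.00565). Its 3 probe sets gave changes of 0.53 to 0.83. Ptgds, a synthase of prostaglandin D2, had 4.42, 4.14, 4.70, 4.34 and 4.66 in controls against 5.13, 5.49, 5.18, 5.32 and 5.18 (change 0.81, SE 0.15, adjusted p = 0.000359). The remaining rises of this kind were Nell1 (0.91), Tent5b (0.88), Dusp26 (0.78), Ahsp (0.78), Ube2c (0.77), Me3 (0.77) and Necab2 (0.75). The second probe set of Necab2, a calcium-binding protein, gave 0.10 (adjusted p = 0.476).

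The falls with no overlap were led by Cr2 (-1.29) and Scd (-1.28). Scd, the desaturase that makes monounsaturated fatty acids and is strong in type 2 cells, was at 9.95, 9.72, 9.74, 10.56 and 10.31 in controls and 9.20, 8.66, 8.18, 8.49 and 9.34 in exposed animals. It fell by 1.28 on the log2 scale (SE 0.39, 2.43-fold, adjusted p = 0.0152). Acaca, which makes the building block of fatty acids, fell by 0.60 (adjusted p = 0.0134), again with no overlap, but these were the only 2 of 22 measured genes of fatty acid metabolism called lower, and 2 were called higher.

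Bcl11b and Zeb2 encode transcription regulators. Bcl11b, needed for T cell identity, read 7.44, 7.16, 7.38, 6.55 and 6.51 in controls and 6.47, 6.39, 5.78, 5.73 and 5.02 in exposed animals (change -1.13, SE 0.24, adjusted p = 0.00107). The groups nearly met, control replicates 4 and 5 being low. Zeb2, a repressor active in mesenchyme and in immune cells, had 7.53, 7.53, 6.89, 7.20 and 7.62 against 6.37, 5.51, 6.72, 6.15 and 5.88 (change -1.23, SE 0.24, adjusted p = 0.000509). Exposed replicates 1 and 3 were the nearest to the controls. Some of these falls held for 1 probe set of a gene and not for another: the other probe sets of Zeb2 changed by 0.02, 0.06 and -0.55, those of Prkcb by -0.12 and -0.08, those of Dock10 by -0.40 and -0.13, that of Mga by 0.13 and that of Snrnp48 by -0.49. The values above are those of the brightest probe set, and which transcripts each probe set reads was not tested.

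**Figure D1:**
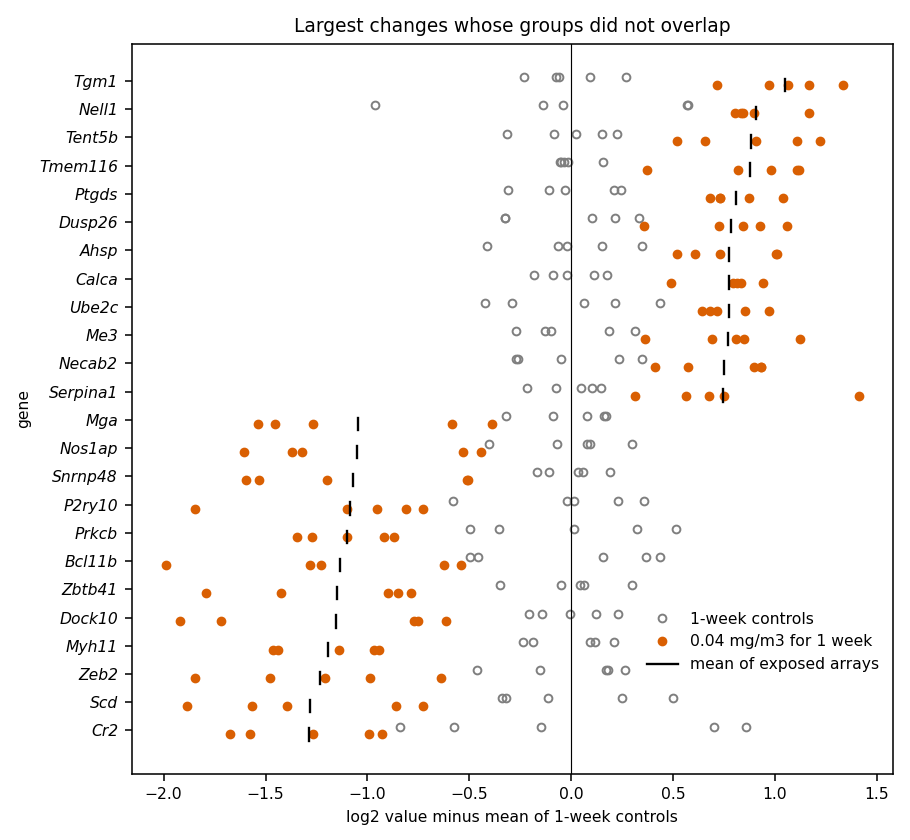
The 24 named genes with groups that did not overlap, 12 with the largest rise and 12 with the largest fall, as log2 value minus the mean of the 1-week controls (x axis) for each gene (y axis). Open grey circles are the 5 controls, filled orange circles the 5 animals exposed to 0.04 mg/m3, and black ticks the exposed means, from 1.05 for Tgm1 down to -1.29 for Cr2. In Nell1 control replicate 4 and in Serpina1 exposed replicate 5 lie apart from the others.

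Smooth muscle genes fell together. All 14 measured genes of the smooth muscle list had a change below 0, with a median of -0.57 against 0.06 over all genes tested. Of the 14, 10 were called lower, which is 71.4% beside 11.8% of all genes, and 0 were called higher. In bulk tissue of this kind, fewer cells of a type and less RNA per cell cannot be told apart, here and for every cell list below. Myh11, the heavy chain of smooth muscle myosin, was at 10.04, 9.64, 9.92, 9.94 and 9.59 in controls and 8.69, 8.88, 8.86, 8.39 and 8.37 in exposed animals. Its mean fell from 9.83 ± 0.20 to 8.64 ± 0.25 (SD, n = 5 each), a change of -1.19 (SE 0.19, 2.28-fold, limma adjusted p = 8.56e-05). The gap between the lowest control and the highest exposed animal was wider than the spread within either group.

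The contractile regulators were less evenly separated. Cnn1, calponin of the thin filament, had 10.94, 9.98, 11.03, 10.48 and 9.73 in controls and 10.02, 9.71, 9.46, 9.40 and 9.37 in exposed animals (change -0.84, SE 0.23, adjusted p = 0.00788). Control replicates 1 and 3 were the highest and replicates 2 and 5 reached into the exposed range. Acta2, smooth muscle actin and a defining marker of these cells, read 8.92, 8.11, 8.43, 8.59 and 7.87 against 7.91, 7.74, 7.70, 7.88 and 7.57 (change -0.63, adjusted p = 0.00814), and only control replicate 5 overlapped. The other genes with falls among the 4 largest were Actg2, the enteric smooth muscle actin (-0.80), and Des, the intermediate filament desmin (-0.76). Taken as the mean over the list, the controls stood at 0.27, -0.24, 0.08, 0.16 and -0.26 around their own mean and the exposed animals at -0.47, -0.53, -0.55, -0.64 and -0.78, with no overlap. Between 9 and 11 members were called lower when any of the 10 arrays was left out. Myocd, the coactivator of the contractile programme, did not pass (-0.37, adjusted p = 0.0619).

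Genes of the wider actin cytoskeleton moved the same way with smaller values. Of 24 measured, 6 were called lower (25% beside 11.8% of all genes) and 0 higher, with a median of -0.10. Flna, the crosslinker filamin A, ran from 10.17 to 10.60 in controls and from 9.70 to 9.94 in exposed animals (change -0.55, adjusted p = 0.00147). Myl9, a myosin light chain of smooth muscle and other contractile cells, fell by 0.54, and Actr3 and Actr2, both subunits of the complex that branches actin filaments, fell by 0.47 and 0.43. In each of these 4 genes all exposed animals were below all controls.

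Fibroblast and matrix genes were mostly on the low side, and 4 of 20 (20% beside 11.8% of all genes) were called lower against 1 higher. Eln (elastin) had a mean of 9.07 ± 0.35 in controls and of 8.20 ± 0.78 in exposed animals (SD, n = 5 each; change -0.87, SE 0.29, limma adjusted p = 0.025). Control replicate 3 was the lowest control and exposed replicate 3 the highest exposed animal, so the groups overlapped. Pdgfra, the receptor that marks alveolar fibroblasts, fell by 0.50 with no overlap, and the proteoglycans Lum and Dcn fell by 0.53 and 0.39. Tcf21, a transcription factor of lipid-storing fibroblasts, rose by 0.41.

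Over the 26 measured chemokines 6 were called lower (23.1% beside 11.8% of all genes) and 2 higher, while 16 lay above 0 and the median was 0.12. Cxcl13, the chemokine that draws B cells into follicles, showed the largest fall of all called genes, from 9.35, 8.56, 9.64, 8.79 and 8.10 in controls to 7.98, 8.22, 7.30, 6.54 and 6.28 in exposed animals (change -1.62, SE 0.31, 3.07-fold, adjusted p = 0.000509). The groups overlapped, with the fifth control below the second exposed animal. Ccl19, which draws T cells and dendritic cells through Ccr7, went from 11.47, 10.93, 11.85, 11.17 and 9.88 to 10.53, 10.88, 9.75, 9.94 and 9.12 (change -1.01, SE 0.34, adjusted p = 0.0253). In both genes control replicates 1 and 3 were the highest controls and replicate 5 the lowest. Ccl21, which shares the receptor of Ccl19, differed by -0.08 (adjusted p = 0.65). In the list of cytokines and NF-kB genes 3 of 22 were called lower (13.6%, near the share of all genes) and 1 higher. Vcam1, the vessel adhesion molecule for lymphocytes, was more evenly separated, at 9.64, 9.51, 9.26, 9.62 and 9.33 against 8.79, 8.84, 8.97, 8.72 and 8.31 (change -0.75, SE 0.15, adjusted p = 0.000599), with no overlap.

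B cell genes followed the same order of control animals, as did Cnn1 among the smooth muscle genes, and the part of either list in the other was not tested. Of 10 measured, 6 were called lower (60% beside 11.8% of all genes) and 0 higher, with a median of -0.64. Ms4a1, which encodes the surface molecule CD20, had 8.16, 7.62, 8.51, 7.61 and 6.77 in controls and 6.55, 7.32, 6.35, 5.55 and 5.72 in exposed animals (change -1.44, SE 0.34, adjusted p = 0.00267). Cr2, the complement receptor of B cells and follicular dendritic cells, had 6.51, 5.50, 6.35, 5.08 and 4.81 against 4.66, 4.72, 4.38, 4.08 and 3.98 (change -1.29, SE 0.30, adjusted p = 0.00228). In Cr2 the groups did not overlap, and its 4 probe sets changed by -1.27, -1.29, -1.07 and -0.55. Cd79b, a signalling chain of the B cell receptor, fell by 1.06, and the inhibitory receptor Cd22 fell by 0.73. Jchain and Mzb1 of plasma cells differed by -0.05 and -0.09, and the follicle-homing receptor Cxcr5 by 0.12 (adjusted p = 0.356), and none of these passed. The number of B cell genes called lower dropped to 3 without control replicate 3 and to 3 in a fit of the compared groups alone.

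T cell genes showed smaller falls. Of 15 measured, 3 were called lower (20% beside 11.8% of all genes), with a median of -0.35, and 14 lay below 0. These were Cd3e (-0.69), a chain of the T cell receptor complex, Il7r (-0.67), the survival receptor of naive and memory T cells, and Cd6 (-0.49). For Il7r the controls read 6.58, 6.42, 6.85, 6.50 and 6.47 and the exposed animals 6.17, 6.30, 5.99, 5.51 and 5.49, with no overlap (adjusted p = 0.00595). The count moved between 1 and 5 as single arrays were left out: it was 1 without control replicate 1 or 3 or exposed replicate 3 or 4, and 5 without control replicate 5. Genes of antigen presentation by MHC class II gave 3 of 11 lower (27.3%), led by their master regulator Ciita (-0.56), and 0 higher. The 2 chemokines called higher were Ccl6 (0.53) and Cxcl16 (0.21), the latter picked out after its value was seen.

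Cells of the blood gave the opposite sign. Erythroid genes were called higher in 4 of 5 measured, platelet genes in 5 of 8 and neutrophil genes in 5 of 10 (80%, 62.5% and 50% beside 15.1% of all genes), and none was called lower. Alas2, the first enzyme of haem synthesis in red cells, had 6.87, 8.12, 7.92, 6.97 and 7.81 in controls and 7.89, 8.18, 8.73, 8.43 and 8.96 in exposed animals (change 0.90, SE 0.27, adjusted p = 0.0136). Ahsp, the chaperone of alpha globin, had 3.85, 4.21, 3.46, 3.80 and 4.02 against 4.47, 4.87, 4.39, 4.88 and 4.60 (change 0.78, adjusted p = 0.000487), with no overlap. Slc4a1, the anion exchanger of red cells, rose by 0.63, and Epb42, a protein of their membrane skeleton, by 0.43. The erythroid count was 1 without exposed replicate 5 and 2 without control replicate 1.

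Among platelet genes, Treml1, a receptor of platelet granules, had 5.13, 5.75, 6.13, 5.24 and 5.90 in controls and 5.97, 5.99, 6.35, 7.03 and 7.34 in exposed animals (change 0.90, SE 0.20, adjusted p = 0.00187). Exposed replicates 4 and 5 were the highest. Clec1b (the podoplanin receptor), Gp9 (part of the von Willebrand factor receptor) and Pf4 (platelet factor 4) rose by 0.71, 0.51 and 0.45.

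Neutrophil genes were all above 0, with a median of 0.44. Cxcr1, a receptor for neutrophil chemokines, had 3.79, 4.30, 4.10, 3.84 and 4.85 in controls against 4.45, 5.12, 5.70, 5.08 and 5.26 (change 0.95, SE 0.24, adjusted p = 0.00475). Csf3r, the G-CSF receptor, rose by 0.65, Camp (an antimicrobial peptide of granules) by 0.60 and Mmp9 (a gelatinase) by 0.48. Camp was dim, its mean over all arrays (3.53) being below the median of probe sets with no symbol on each of the 10 arrays. The calgranulin genes S100a8 and S100a9, not chosen by size, gave 0.44 (adjusted p = 0.187) and 0.41 (0.14) and did not pass. The neutrophil count was 2 without exposed replicate 5 and 3 without control replicate 1 or 5 or exposed replicate 4. Averaged over the list, exposed replicate 5 was the highest of all 10 animals for neutrophil genes (0.78) and for erythroid genes (0.91). The part of the red cell genes' rise in that of the neutrophil and platelet genes was not tested.

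Heart muscle genes, which the rat also expresses in the muscle sleeve of its pulmonary veins, varied most between animals. The 14 measured genes had a median change of 0.89, yet 1 was called. Averaged over the list the controls stood at -0.18, -0.41, -1.90, 1.02 and 1.47 and the exposed animals at 1.06, 0.57, 0.50, 0.97 and 0.50. Control replicate 3 was far below and control replicates 4 and 5 were among the highest of all animals. The one called gene, Ckmt2, a mitochondrial creatine kinase, read 6.21, 6.08, 2.87, 7.82 and 8.56 against 8.10, 7.59, 7.26, 8.27 and 7.80 (adjusted p = 0.0463). The number called was 0 without control replicate 1, 2 or 3 or without exposed replicate 1, 2, 4 or 5, 5 without control replicate 4 and 8 without control replicate 5. Skeletal muscle genes, 10 measured, gave 0 calls with limma. At an unadjusted limma p below 0.05, 2 of the 10 were higher, where 5630 of all 13438 genes passed in either direction.

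**Figure D2:**
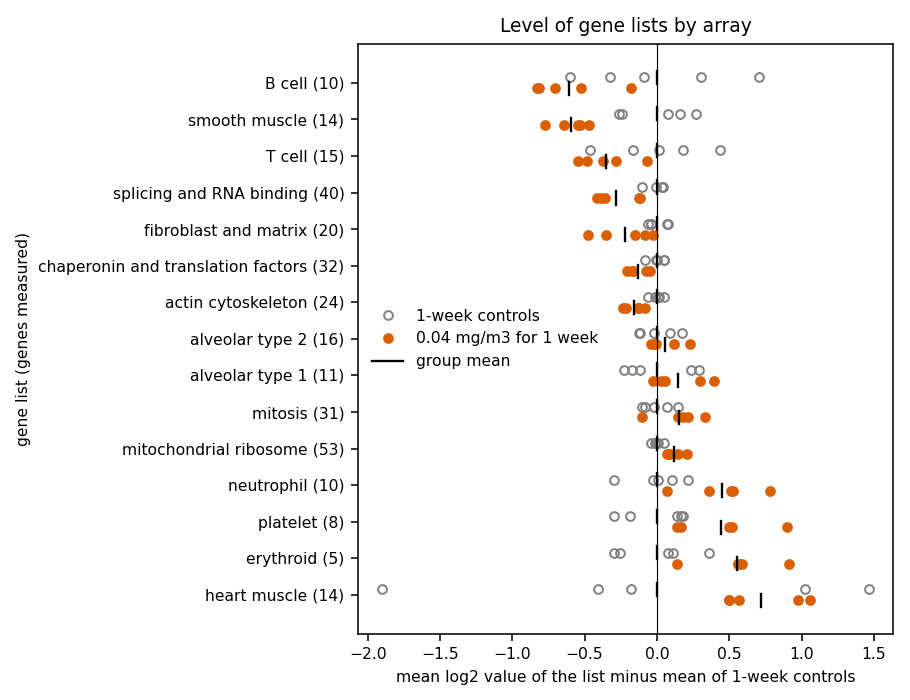
Mean log2 value of each gene list in each animal, minus the mean of the 1-week controls (x axis), for 15 lists with the number of genes measured in brackets (y axis). Open grey circles are controls, filled orange circles animals exposed to 0.04 mg/m3, and black ticks group means; smooth muscle lies between -0.78 and -0.47 in exposed animals with no overlap, and heart muscle spans -1.90 to 1.47 among controls.

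Among lists of the epithelium the type 2 list was called about as often as genes in general, of which 15.1% were higher and 11.8% lower. The other lists held few called genes. Of the 16 type 2 cell genes 3 were higher (18.8%) and 2 lower (12.5%), and the surfactant gene Sftpc itself changed by 0.08 (adjusted p = 0.16). The called genes were Scd, described above, Slpi (an antiprotease, -0.63), Etv5 (a transcription factor of type 2 cells, 0.52), Lpcat1 (a surfactant lipid enzyme, 0.36) and Abca3 (the lipid pump of lamellar bodies, 0.25), the last added after its value was seen. Type 1 cell genes gave 1 of 11 higher (9.09%), Ager (0.36), and 0 lower. Club cell genes gave 0 of 9 higher and 1 lower (11.1%). Ciliated cell genes gave 0 of 12 higher and 2 lower (16.7%), the axonemal gene Ccdc39 (-0.59) and the tubulin Tubb4b (-0.47). In goblet cell genes 1 of 13 rose (7.69%), Spdef (0.51), a transcription factor of mucous cells, and 0 fell. Endothelial genes gave 2 of 16 higher (12.5%), Car4 (carbonic anhydrase of alveolar capillaries, 0.63) and Tie1 (an angiopoietin co-receptor, 0.47).

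Macrophage genes moved in single members. Alveolar macrophage genes gave 1 of 10 higher (10% beside 15.1% of all genes), Car4 again, and 0 lower. Monocyte and interstitial macrophage genes gave 2 of 15 higher (13.3%) and 1 lower (6.67% beside 11.8% of all genes): Fcgr3a, an Fc receptor, rose by 0.83, Cx3cr1 rose by 0.29 and Aif1 fell by 0.44. In the list of lysosome and lipid handling, 4 of 24 were higher (16.7%, near the share of all genes) and 2 lower (8.33%). Its largest rise was Trem2, a lipid-sensing receptor of macrophages, at 6.53, 6.44, 6.88, 6.58 and 7.49 in controls and 7.07, 7.93, 8.04, 7.87 and 7.94 in exposed animals (change 0.99, SE 0.23, adjusted p = 0.0028), with control replicate 5 inside the exposed range. Plin2, a lipid droplet coat protein, rose by 0.40, and the cholesterol exporter Abca1 fell by 0.49. The other probe sets of Abca1 gave -0.11 (limma adjusted p = 0.657), -0.13 (0.559) and -0.68 (0.0138).

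Genes for splicing and RNA binding formed the broadest fall among the cellular machineries. Of 40 measured, 24 were called lower (60% beside 11.8% of all genes) and 1 higher, with a median of -0.32. The largest falls were those of Son and Pnn (both -0.61), which organise splicing factors in nuclear speckles and at exon junctions, Srsf5 (-0.57), an SR protein, and Sf3b1 (-0.57), the core of the complex that reads the branch point. Srsf5 was at 9.77, 9.66, 9.44, 9.73 and 9.83 in controls and 9.35, 8.95, 9.43, 8.86 and 8.98 in exposed animals (SE 0.12, adjusted p = 0.000944). Exposed replicates 2, 4 and 5 were clearly lower and replicates 1 and 3 lay near control replicate 3. Rbm39, a splicing cofactor singled out after its values were seen, fell by 0.53, and its 5 probe sets gave changes of -0.40 to -0.69. Snrnp48, a protein of the minor spliceosome and 1 of the largest falls, read 5.60, 5.76, 5.46, 5.40 and 5.62 against 5.06, 4.37, 5.06, 3.97 and 4.04 (change -1.07, SE 0.19, adjusted p = 0.000371), with the same 3 exposed animals lowest.

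The level of this list ran with 1 measure of array brightness, the median over all probe sets. The median log2 value of all probe sets was 5.438, 5.457, 5.391, 5.43 and 5.454 in control replicates 1 to 5 and 5.381, 5.322, 5.373, 5.321 and 5.254 in exposed replicates 1 to 5. The means were 5.43 ± 0.03 and 5.33 ± 0.05 (SD, n = 5 each), a difference of -0.10 with no overlap (exact permutation p = 0.00794, two-sided, the smallest this design allows, and 0.0238 adjusted over 6 measures of the arrays). Over the genes tested the medians of the arrays differed by -0.01 (exact permutation p = 0.667). By that median exposed replicate 4, at 7.1, lay above the controls, which ran from 7.072 to 7.089. By the median of probe sets with no symbol exposed replicate 5, at 4.165, was the highest of its group. The mean of the splicing list, taken from its control mean, was 0.03, 0.04, -0.10, -0.01 and 0.03 in controls and -0.13, -0.36, -0.12, -0.41 and -0.39 in exposed animals. Exposed replicates 2, 4 and 5 had both the lowest medians of all probe sets and the lowest splicing levels. Control replicate 3 had the lowest such median and the lowest level of the controls. With each array centred on its median over the genes tested 23 splicing genes were called lower, after quantile normalisation 25, and in a fit of the 25 arrays of 1 week 13. The centring and the quantile normalisation used the genes tested only, so the part of the median of all probe sets was not tested.

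**Figure D3:**
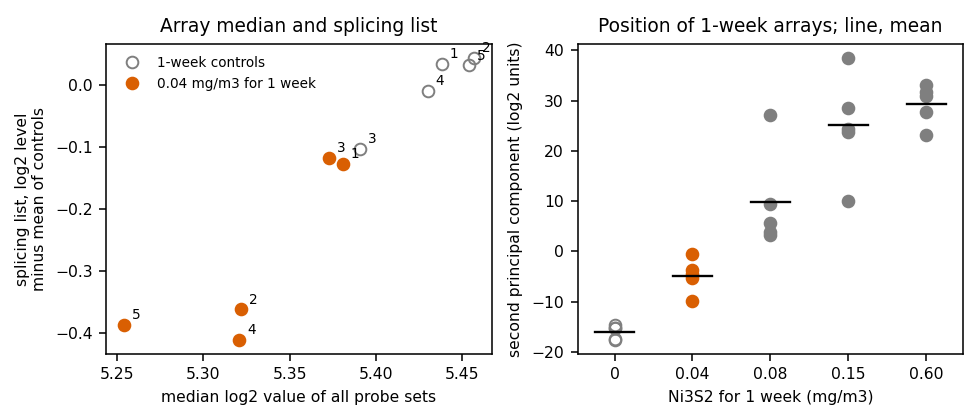
Left, the median log2 value of all probe sets of an array (x axis) against the mean log2 level of the splicing list minus its control mean (y axis), with replicate numbers beside the points; open grey circles are 1-week controls and filled orange circles animals exposed to 0.04 mg/m3. Right, the second principal component (log2 units) of the 1-week arrays by Ni3S2 concentration, with group means as lines: the 0.04 mg/m3 arrays lie between -9.98 and -0.579, above the controls, which lie between -17.6 and -14.6.

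Other machineries of RNA and protein moved less. In the list of chaperonin and translation factors 8 of 32 were lower (25% beside 11.8% of all genes) and 2 higher. The largest falls were those of Eif5 (-0.45), Eif4g2 (-0.41), Ncl (-0.40) and Eif3a (-0.40). Of these the first, the second and the fourth act in starting translation and Ncl in ribosome assembly. The count called lower was 3 without exposed replicate 5, 4 without exposed replicate 4 or control replicate 1, and 5 without control replicate 5. Cytosolic ribosomal proteins gave 6 of 37 lower (16.2%), led by Rps6 (-0.32), and 0 higher. Of 53 mitochondrial ribosome genes 9 were called higher and 0 lower, 43 lay above 0 and the median was 0.13; the share higher, 17%, was near the 15.1% of all genes. Mrps7 stood at 8.56, 8.68, 8.56, 8.68 and 8.64 in controls and 8.83, 8.86, 8.91, 9.11 and 8.97 in exposed animals (change 0.31, SE 0.07, adjusted p = 0.0026), a small shift with no overlap. Mrps27, Mrpl10 and Mrps35 rose by 0.43, 0.36 and 0.30. The count was 14 without exposed replicate 1, 3 in the fit of 1-week arrays and 21 without the 0.08 mg/m3 1-week group, a fit chosen after seeing the data. Proteasome genes gave 7 of 32 higher (21.9% beside 15.1% of all genes) and 1 lower (3.12%). Oxidative phosphorylation genes gave 2 of 51 higher (3.92%) and 1 lower (1.96%), both below the shares of all genes.

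A list of 24 genes known from the higher concentrations of this study was examined member by member; since it was drawn up with results of these data in view, its counts are a description. After 1 week at 0.04 mg/m3, 2 of its members were called higher (8.33% beside 15.1% of all genes) and 2 lower. Hmox1, haem oxygenase 1, an enzyme of the oxidant response, was at 8.75, 8.78, 8.78, 8.79 and 8.93 in controls and 9.14, 9.34, 9.38, 9.32 and 9.54 in exposed animals. The rise of 0.54 (SE 0.12, 1.45-fold, adjusted p = 0.0023) had no overlap. Slc39a2, a zinc importer, read 8.11, 8.21, 8.12, 8.16 and 8.98 against 8.40, 8.89, 9.20, 8.87 and 9.31 (change 0.61, SE 0.19, adjusted p = 0.0175). Control replicate 5 overlapped the exposed animals, and without exposed replicate 5 the change was 0.52 (adjusted p = 0.0652).

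The monocyte chemokines in that list were lower. Ccl2 had 7.75, 7.47, 7.36, 6.90 and 6.63 in controls and 7.07, 6.75, 6.49, 6.38 and 5.76 in exposed animals (change -0.73, adjusted p = 0.0166), and Ccl7 changed by -0.79 (adjusted p = 0.0299). Both groups were spread widely and overlapped. Ccl2 missed the threshold without control replicate 1 (-0.60, adjusted p = 0.0622) or exposed replicate 5 (-0.55, 0.0832), and in a fit of these 10 arrays alone (adjusted p = 0.0565). Ccl7 missed it without any of control replicates 1, 2 and 3 and exposed replicates 4 and 5, with adjusted p up to 0.0932, and in the fit of 1-week arrays (0.0501).

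In 3 members the groups did not overlap although the test was not passed. Saa3, an acute phase protein of the lung, read 3.54, 3.63, 3.57, 3.32 and 3.69 in controls and 4.20, 3.97, 4.70, 3.77 and 4.92 in exposed animals (difference 0.76, SE 0.30, adjusted p = 0.0557). Retnla, a secreted product of type 2 immunity, read 8.27, 8.36, 8.38, 8.18 and 8.62 against 8.98, 8.66, 9.20, 8.93 and 9.05 (0.60, SE 0.27, adjusted p = 0.0826). Tdh, the first enzyme of threonine breakdown, read 3.50, 3.67, 3.52, 3.44 and 3.51 against 4.34, 4.04, 3.77, 3.82 and 4.36 (0.54, SE 0.21, adjusted p = 0.0524). In a fit of these 10 arrays alone, which takes the spread from them and not from all 10 groups, the adjusted p was 0.0236, 0.0113 and 0.0172. In the fit of all arrays Saa3 passed without exposed replicate 4 (0.90, adjusted p = 0.0465) and Tdh without exposed replicate 3 (0.61, 0.0341).

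The other 17 members did not pass. Osteopontin, Spp1, differed by -0.11 (adjusted p = 0.793), the macrophage elastase Mmp12 by -0.50 (0.155), pendrin, Slc26a4, by 0.31 (0.311), and the prostaglandin E synthase Ptges by -0.18 (0.567). The iron-binding defence protein Lcn2 differed by 0.30 (0.361), the inhibitory receptor Lilrb4 by -0.16, the thioesterase Acot1 by 0.07 (0.875), and the glutathione transferase Gsta3 by -0.29 (0.22). The differences of the others were as follows: Scin (-0.37), Serpinb10 (0.12), Upk1a (0.02), Cyp2a3 (0.11), Azgp1 (0.26), Mt2A (0.09), Egln3 (-0.30) and Nqo1 (0.06). Pla2g2d, a phospholipase, differed by 0.45 (adjusted p = 0.0867) and passed without exposed replicate 1 (0.62, 0.0202).

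The classic targets of nickel were examined as lists. Of 19 targets of NRF2, the transcription factor of oxidant defence, 4 were higher (21.1% beside 15.1% of all genes) and 1 lower: beside Hmox1 and Abcc1 these included Osgin1 (0.44) and Srxn1 (0.43), a growth inhibitor and the enzyme that restores peroxiredoxins, while the quinone reductase Nqo1 differed by 0.06 (adjusted p = 0.586). Abcc1 had 8.87, 8.84, 8.82, 8.67 and 8.66 in controls and 8.44, 8.10, 7.74, 8.16 and 8.01 in exposed animals, with no overlap. Of 24 hypoxia targets 7 were higher (29.2% beside 15.1% of all genes) and 3 lower (12.5%). Ankrd37, a direct target of hypoxia-inducible factor, rose from 7.62, 7.25, 7.34, 7.40 and 7.42 to 7.84, 7.98, 7.91, 8.11 and 7.80 (change 0.52, SE 0.11, adjusted p = 0.00152) with no overlap. Car9 (carbonic anhydrase 9) rose by 0.33, whereas Loxl2 (a matrix crosslinker) and Kdm3a (a histone demethylase) fell by 0.33 and 0.31. The count of hypoxia genes called higher was 4 without exposed replicate 4.

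Genes of metal handling did not share a direction. Of 18 measured, 2 were higher (11.1%) and 3 lower (16.7%), beside 15.1% and 11.8% of all genes. Steap4, a metalloreductase, fell from 6.36, 5.87, 5.97, 6.60 and 6.29 to 6.14, 5.76, 4.85, 5.50 and 5.19 (change -0.73, SE 0.17, adjusted p = 0.00231), with the first and second exposed animals within the control range. The zinc exporter Slc30a4 fell by 0.56, and the zinc importer Slc39a4 rose by 0.43 beside Slc39a2. The metallothionein genes Mt1 and Mt2A, which are induced by many metals, differed by 0.19 (adjusted p = 0.255) and 0.09 (0.703).

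Of 31 mitosis genes 6 were called higher and 0 lower. The share higher, 19.4%, was near the 15.1% of all genes, and the median of 0.11 near the 0.06 of all genes, so the called members are given singly. Cdk1, the kinase that drives entry into mitosis, was at 6.35, 6.99, 6.73, 7.09 and 6.74 in controls and 7.40, 7.83, 7.58, 7.70 and 7.04 in exposed animals (change 0.73, SE 0.20, adjusted p = 0.00716). Exposed replicate 5 lay inside the control range and the other 4 were above it. Ube2c, the ubiquitin-conjugating enzyme of mitotic exit, had 5.67, 6.31, 6.53, 6.16 and 5.80 against 6.74, 7.07, 6.78, 6.81 and 6.95 (change 0.77, SE 0.19, adjusted p = 0.00316), with no overlap. Cdc20, the activator of the same exit step, read 6.29, 6.57, 6.85, 6.97 and 6.10 against 7.15, 7.52, 7.24, 7.36 and 6.64 (change 0.63, SE 0.21, adjusted p = 0.023), and Aurka, a spindle kinase, rose by 0.62 with no overlap. In the fit of 1-week arrays alone 1 mitosis gene was called. Of 27 genes of the G1/S transition and DNA replication, 4 were higher (14.8%, near the share of all genes) and 2 lower (7.41%). Tk1 (thymidine kinase) and Cdt1 (an origin-licensing factor) rose by 0.63 and 0.44. Mcm4 (a subunit of the replicative helicase) and Rrm1 (of ribonucleotide reductase) fell by 0.61 and 0.47.

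Genes of mitosis are known to be timed through 2 promoter elements, the cell cycle homology region, TTTGAA, and the CCAAT box. Both were searched on both strands in the 250 bases before the start site, from RefSeq's promoters of the GRCr8 rat assembly. TTTGAA was found in 12 of the 27 mitosis genes with a window (44.4%) and in 16.0% of all 27457 windows, and CCAAT in 22 of 27 (81.5%) and in 34.3% of all windows. Of the 6 mitosis genes called higher 5 had a window and 2 held both elements, and these are shown because their promoters and their rise can be read side by side. They are printed 5′ to 3′ on the gene's strand with matches in capitals, ATTGG being CCAAT on the other strand. Cdk1 lies on chromosome 20, plus strand (chr20:19265043-19265292), with 2 TTTGAA and 3 CCAAT matches, and Cdc20 on chromosome 5, minus strand (chr5:137255800-137256049), with 1 and 2. A CArG box, the element of serum response factor, was likewise searched in the smooth muscle list (0 of 10 windows, against 1.5% of all windows), and ATGCAAAT, the octamer of B cell promoters, in the B cell list (0 of 5, against 1.5%). A match is a description of the letters and not a bound site, and no match says only that the letters are not in this window.
Cdk1: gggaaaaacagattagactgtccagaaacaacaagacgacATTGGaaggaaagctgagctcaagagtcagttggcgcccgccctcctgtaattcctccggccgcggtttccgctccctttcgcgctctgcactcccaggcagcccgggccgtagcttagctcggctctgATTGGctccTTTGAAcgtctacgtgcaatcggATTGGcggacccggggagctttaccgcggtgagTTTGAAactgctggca
Cdc20: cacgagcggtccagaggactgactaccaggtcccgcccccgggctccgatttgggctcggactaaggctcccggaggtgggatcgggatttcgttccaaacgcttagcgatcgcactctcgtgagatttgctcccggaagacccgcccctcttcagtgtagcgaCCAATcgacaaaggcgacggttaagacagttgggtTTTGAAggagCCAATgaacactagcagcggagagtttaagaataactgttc

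Of 19 genes of cholesterol synthesis 6 were higher (31.6% beside 15.1% of all genes) and 0 lower, with a median of 0.05. Fdft1, squalene synthase, was at 7.99, 7.99, 7.96, 8.01 and 8.09 in controls and 8.46, 8.19, 8.22, 8.79 and 8.42 in exposed animals (change 0.41, SE 0.10, adjusted p = 0.00397), and Tm7sf2, Lss and Fdps rose by 0.42, 0.39 and 0.36. Genes of the unfolded protein and integrated stress response gave 4 of 26 higher, 15.4% and so no more often than all genes, and 0 lower. Chac1, which degrades glutathione, rose by 0.63, and the endoplasmic reticulum proteins Calr, Pdia4 and Manf rose by 0.32, 0.30 and 0.28. Of 24 interferon-induced genes 4 were higher (16.7%, near the share of all genes) and 0 lower, namely Oas1a and Oasl (0.75 each), which belong to the oligoadenylate synthetase family, and the signalling factors Stat2 (0.38) and Irf9 (0.36). Averaged over the list, exposed replicates 1 to 5 stood at 0.01, 0.15, -0.07, 0.05 and 0.59, and controls between -0.14 and 0.16.

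Of 28 DNA repair genes 6 were higher (21.4%) and 2 lower (7.14%), beside 15.1% and 11.8% of all genes. The glycosylases Ogg1, Ung and Nthl1, which remove damaged bases, rose by 0.37, 0.32 and 0.30, and the endonuclease Ercc5 of nucleotide excision repair fell by 0.41. Of 25 enzymes that write or erase histone and DNA methylation or acetylation marks 6 were lower (24% beside 11.8% of all genes) and 1 higher. Dnmt3a, a DNA methyltransferase, was at 7.41, 7.52, 7.47, 6.99 and 7.08 in controls and 6.88, 6.31, 6.55, 6.59 and 6.75 in exposed animals (change -0.68, SE 0.12, adjusted p = 0.00019), with no overlap. The histone demethylases Kdm5a, Kdm2a and Kdm5b fell by 0.59, 0.43 and 0.36, each with no overlap.

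Next, the values at 0.04 mg/m3 were set beside those of the other concentrations after 1 week. All 4 comparisons share the same 5 controls, so their values are given side by side and not tested against each other. Some genes had values that climbed from 0.04 through 0.08 and 0.15 to 0.60 mg/m3. The change of Saa3 was 0.76, 1.37, 3.69 and 4.53, that of Retnla 0.60, 1.39, 4.07 and 4.67, and that of Cdk1 0.73, 1.31, 2.43 and 2.98. The median over the mitosis list was 0.11, 0.51, 1.34 and 1.86, and over cholesterol synthesis 0.05, 0.39, 0.81 and 0.97. Zbtb41, a zinc finger gene, gave -1.15, -1.21, -1.69 and -1.87.

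Other genes showed no such climb. Tmem116 gave 0.88, 0.72, 0.66 and 0.66, Nell1 0.91, 0.77, 1.15 and 1.00, and Hmox1 0.54, 0.25, 0.38 and 0.62. Myh11 gave -1.19, -0.75, -0.61 and -0.76, while the median of the whole smooth muscle list was -0.57, -0.70, -0.96 and -0.98. The sign at 0.04 mg/m3 differed from that at 0.15 and 0.60 mg/m3 for Tent5b, a poly(A) polymerase (0.88, -0.28, -1.32 and -1.13), for Slc39a2 (0.61, -0.26, -0.78 and -0.89) and for Ptgds (0.81, -0.02, -0.53 and -0.49). It also differed for Srsf5 (-0.57, 0.15, 0.52 and 0.49), Snrnp48 (-1.07, -0.19, 0.50 and 0.22) and Map3k1 (-0.81, 0.02, 0.29 and 0.14). The splicing list as a whole had medians of -0.32, -0.10, 0.11 and 0.12. Tgm1, the largest of the named rises, gave 1.05, 0.06, -0.47 and -0.36.

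**Figure D4:**
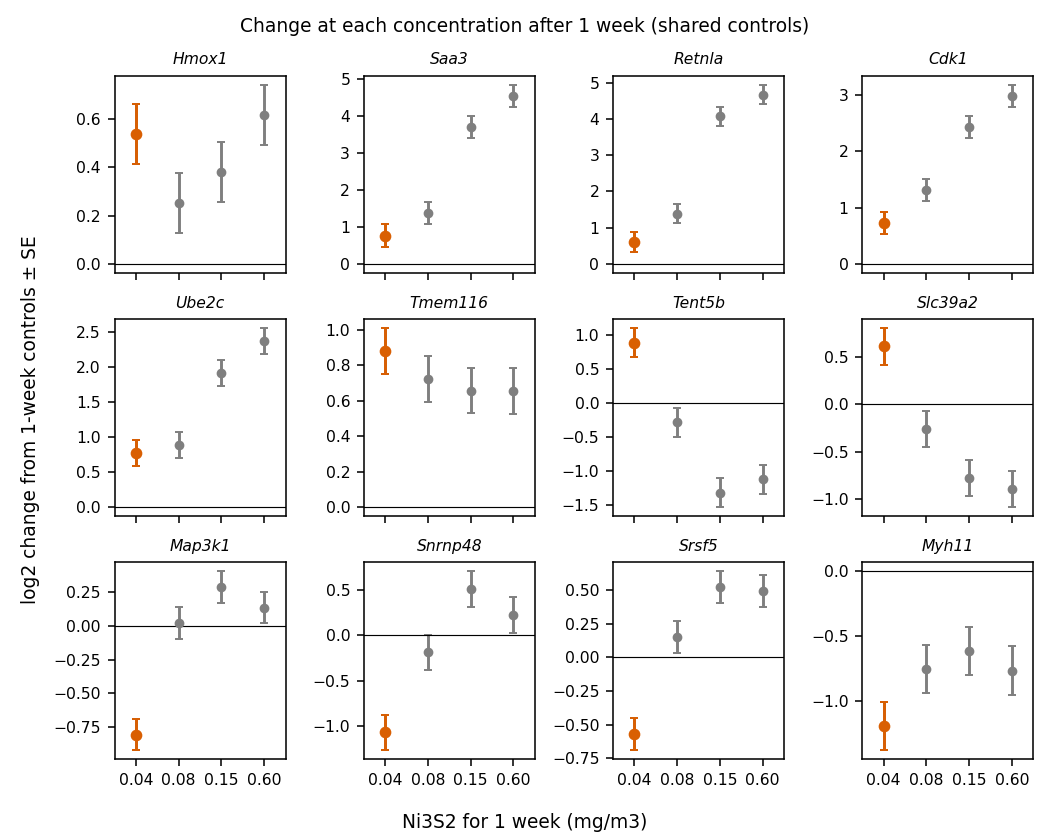
Log2 change from the shared 1-week controls (y axis, different in each panel) at each of the 4 concentrations of Ni3S2 (x axis) for 12 genes, with the standard error of the model; 0.04 mg/m3 is in orange. Saa3, Retnla, Cdk1 and Ube2c climb with concentration, whereas Tent5b, Slc39a2, Map3k1, Snrnp48 and Srsf5 have another sign at 0.04 than at 0.15 and 0.60 mg/m3.

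The arrays' position was read from principal components of all 50 arrays. On the first, which held 63.5% of the variance, controls lay at -58.0 ± 12.2 and the animals at 0.04 mg/m3 at -76.5 ± 9.73 (SD, n = 5 each), with overlap (exact permutation p = 0.0397, 0.0596 adjusted over 6 measures). The group means were -27.1 at 0.08 mg/m3, 8.56 at 0.15 mg/m3 and 2.52 at 0.60 mg/m3, on the other side of the controls. All 4-week groups lay above those of 1 week, with means from 20.4 at 0.04 mg/m3 to 38.2 at 0.60 mg/m3. The 4-week controls were at 31.3, so this component also separated the times. On the second component, which held 10.5% of the variance, controls lay at -16.0 ± 1.38 and the animals at 0.04 mg/m3 at -4.83 ± 3.39 (SD, n = 5 each), with no overlap (exact permutation p = 0.00794, 0.0238 adjusted over 6 measures). The 1-week animals breathing 0.08 mg/m3 lay at 9.84, those at 0.15 mg/m3 at 25.1 and those at 0.60 mg/m3 at 29.4. Among the genes with the most weight on that axis were Retnla, Saa3, Cdk1 and Ccno (a cyclin-like gene of multiciliated cells) at the high end and Zbtb41, Nexn and Ptpn4 at the low end, picked out after their values were seen. Ccno rose by 0.66 at 0.04 mg/m3 (adjusted p = 0.0372), and Nexn, a protein of muscle Z-discs, and Ptpn4, a phosphatase, fell by 0.58 and 0.75. Other genes at the high end differed less at 0.04 mg/m3: Melk, a cell cycle gene (0.03), Atp6v0a4 (0.05), Tmem213 (0.07), Calcb (0.09), Ube2t (0.20) and Rrm2 (0.21). At the low end Foxp2, Atrx, Neb, Arhgap5, Zfp386 and Zfp638 differed by -0.63 to -0.36, and Omd by 0.14. None of these passed.

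Finally, the change after 1 week was compared with that after 4 weeks at the same concentration, in other animals with their own controls. After 4 weeks 1734 genes (12.9%) were called, 1114 (8.29%) higher and 620 (4.61%) lower. The difference between the changes, an interaction term in the same limma fit, passed for 1613 genes (12%), 970 (7.22%) with a higher change at 4 weeks and 643 (4.78%) with a lower one. In all, 65 genes were higher at both times, 3.19% of the 1-week and 5.83% of the 4-week list, and 138 were lower at both, 8.74% and 22.3%. There were 160 genes that were lower at 1 week and higher at 4 weeks (10.1% of the former list, 14.4% of the latter) and 11 with the reverse pattern. Of the genes called at 1 week 979, or 27.1%, also passed the test of the difference. The difference holds the 1-week change itself, so genes with a large change at 1 week are favoured in that count.

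The change of several smooth muscle, B cell and T cell list members differed between the times. Of all genes 8.29% were higher at 4 weeks, and 7.22% passed the test of the difference with the higher change at 4 weeks. These lists were described for their 1-week change, which is part of the difference and favours its passing. In the smooth muscle list 13 of 14 genes were higher at 4 weeks, with a median of 1.05 in place of -0.57, and 14 of 14 passed the test of the difference. Myh11 changed by -1.19 at 1 week and 0.90 at 4 weeks (adjusted p = 0.00106), a difference of 2.09 (adjusted p = 1.23e-06), and Cnn1, at -0.84 after 1 week, differed by 2.34. In B cell genes 6 of 10 were higher at 4 weeks and 6 passed the test of the difference, and in T cell genes 12 of 15 and 12. Cxcl13 went from -1.62 to 1.71, Ms4a1 from -1.44 to 1.60, and Ccl19 from -1.01 to 2.51. Fibroblast and matrix genes differed in 11 of 20 and MHC class II genes in 8 of 11, always with the higher change at 4 weeks.

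The blood lists differed the other way. Of 5 erythroid genes 3 and of 8 platelet genes 5 passed the test of the difference with a lower change at 4 weeks, beside 4.78% of all genes. Ahsp changed by 0.78 at 1 week and by -0.57 at 4 weeks (adjusted p = 0.00711). For splicing, 2 genes of 40 were higher at 4 weeks and 2 lower, beside 8.29% and 4.61% of all genes. Of the 40, 5 passed the test of the difference, all with the higher change at 4 weeks (7.22% of all genes). Of the 31 mitosis genes 2 were lower at 4 weeks, with a median of 0.05 over the list, and 0 passed the test of the difference. Among single genes Tmem116 (-0.04 at 4 weeks, difference -0.92) and Dnmt3a (0.28, difference 0.96) passed the test of the difference, and Tgm1 (0.20, difference -0.85, adjusted p = 0.254) and Hmox1 (0.20, difference -0.34, adjusted p = 0.211) did not. Tdh, at 0.54 after 1 week, rose by 1.33 after 4 weeks.

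**Figure D5:**
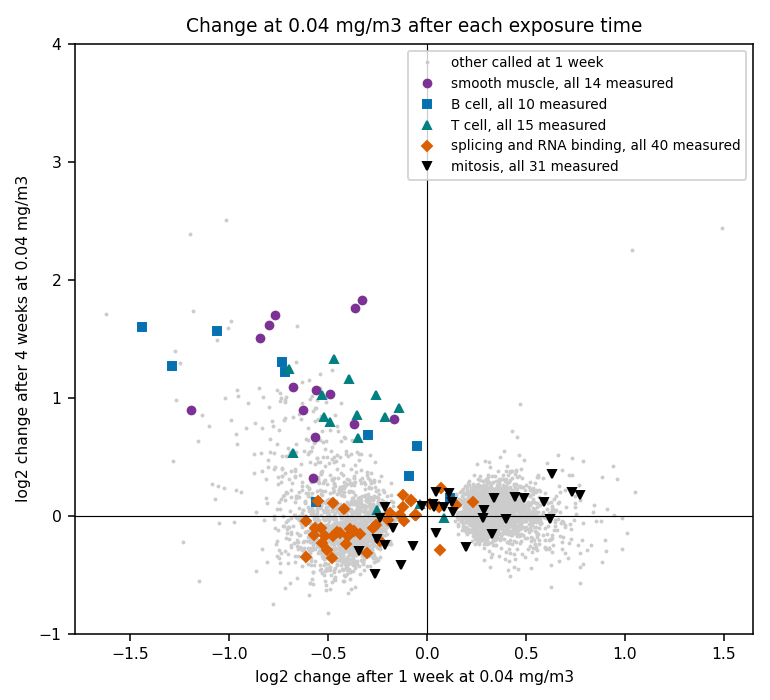
Log2 change at 0.04 mg/m3 after 1 week (x axis) and after 4 weeks (y axis), each against its own controls; grey dots are genes called at 1 week and symbols are all measured members of 5 lists. Every smooth muscle gene lies left of 0 and above 0, with medians of -0.57 and 1.05, while splicing genes lie mostly left of 0, with a median of -0.32, and around -0.09 after 4 weeks.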

How the data were processed

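Total RNA of 50 lungs, 1 animal per array, was labelled by in vitro transcription and hybridised to Affymetrix rat arrays. The deposited log2 intensities had been made by the authors with RMA in Partek, per the submitters' processing notes; no source used here gives versions or which arrays were normalised together. They were used without further normalisation. Of 31042 probe sets, 19063 carried 1 symbol, 572 several and 11407 none. Only the first were used, the brightest by mean over all arrays for each of 13438 genes (3985 had several). Gene identifiers of 18983 probe sets matched the current gene table, and 0 symbols differed. RMA draws arrays towards one distribution, so a shift shared by most genes is not seen.

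A mean per group was fitted to all 50 arrays with limma 3.58.1 (lmFit, eBayes) in R 4.3.3, so the spread comes from all 10 groups. Tests were two-sided, adjusted by Benjamini-Hochberg over all genes, and calls were made at an adjusted p below 0.05. A change is the exposed minus the control mean of log2 values with the standard error of the model, and the spread of a group is given as SD. Measures of whole arrays were compared by exact permutation tests. The fit was tested on simulated data. A group's 5 animals limit the precision, and labels give no extraction or scan batch.

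Genes were named by rule: the 12 largest rises and falls among called genes whose groups did not overlap, up to 4 called members of a list with the largest change, and all 24 sentinel genes. The 57 lists held 1267 symbols, 1027 of them measured. The comparison, its lists and the sentinel genes were chosen with earlier results of these data known. Any pair of arrays differed in at least 31031 probe sets.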

Additional observations from a re-analysis of the deposited data

Results flagged for a closer look

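Over the named genes and the levels of 15 gene lists, 126 groups of 5 arrays were examined, and 4 held an array far from the other 4, where chance alone gives about 1 in 20 groups. Control replicate 5 was high for Tmem116 (5.149, the others 4.938 to 4.975), Slc39a2 (8.983, the others 8.114 to 8.212) and Hmox1 (8.932, the others 8.748 to 8.794). Exposed replicate 5 was high for Nell1 (6.55, the others 6.187 to 6.28).

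For 26 of 48 named genes the change at 0.04 mg/m3 differed between 4 weeks and 1 week in the limma test of that difference (adjusted p under 0.05), given here as the 4-week minus the 1-week change. Over all genes 12% passed; 24 of the named genes were chosen for a large 1-week change, which is part of this difference and favours both its passing and its sign. It was positive for Cr2 (2.555), Bcl11b (1.986), Prkcb (1.86), Dock10 (1.792) and P2ry10 (1.358). It was also positive for Myh11 (2.088), Scd (1.747), Nos1ap (1.302), Snrnp48 (1.208) and Zeb2 (1.007), and for the sentinel genes Egln3 (1.521), Ccl7 (1.326), Mmp12 (1.247), Ptges (1.206) and Ccl2 (1.14). The difference was negative for Ahsp (-1.343), Ptgds (-1.095), Calca (-1.089), Dusp26 (-0.9885), Tmem116 (-0.9235), Nell1 (-0.8529) and Serpina1 (-0.7774). Among sentinel genes it was negative for Serpinb10 (-1.222), Slc39a2 (-0.8843), Azgp1 (-0.7661) and Nqo1 (-0.3531).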

How the results depend on the processing

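The number of genes called depended on which arrays set the spread. The median SD of a gene within a group was 0.152 in 1-week controls and 0.177 at 0.04 mg/m3 for 1 week. At 0.08 mg/m3 for 1 week that median was 0.253, and in the 4-week groups it ran from 0.0961 (0.04 mg/m3) to 0.15 (0.08 mg/m3). A fit of the 2 compared groups gave 2274 genes, 1133 higher, and kept 58.1% of the calls, a fit of the 25 arrays of 1 week gave 1570 (850 higher, 720 lower) and kept 42.7%, and leaving out the 0.08 mg/m3 1-week group, chosen after seeing the data, gave 5066. A test against 1.2-fold gave 15 (3 higher, 12 lower), and 291 for the difference between times, which array weights raised to 3015. With single arrays left out the calls ran from 2261 (without exposed replicate 4) to 4314 (without exposed replicate 3), the higher from 1246 to 2371, the lower from 968 (without exposed replicate 5) to 1943, and the difference between times from 1262 to 1824. Centring gave 3735 calls, quantile normalisation 3330, leaving out the dimmest 25% of genes 3258, every probe set 4946, the mean of probe sets 3616, a variance trend 3564 and an axis of within-group spread 4309. Of the calls 56.3% were higher, 60.9% after centring and 50.2% after quantile normalisation. Without the dimmest 25% of genes 50.7% were higher (1653 higher, 1605 lower). No named gene changed sign with a call: of the alternatives for the 24 largest changes 527 kept the call and 21 lost it, 19 of the 21 under the 1.2-fold test. The cause of these differences was not tested.

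With the replicate number as a block 3454 genes were called (1925 higher, 1529 lower) and 1559 for the difference between times, close to the fit without it. Correlations of the deviations of same-numbered control and exposed animals from their group means were 0.208, -0.369, -0.364, 0.329 and 0.131. Those of differently numbered animals ran from -0.446 to 0.405. The labels give no pairing, and these values cannot tell whether same-numbered animals share more than a number.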

Other observations

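Some lists not described above held a few called members, and of all genes 15.1% were higher and 11.8% lower. Among 9 neural and Schwann cell genes 3 were higher (33.3%) and 0 lower: beside Calca these were Resp18 (0.44), a protein of secretory granules in endocrine cells, and Chga (0.41), chromogranin A of neuroendocrine cells. Of 18 clock genes 2 were higher (11.1%) and 3 lower (16.7%). Rora, an activator of the clock loop, fell by 0.66 and Nr1d2, a repressor in the same loop, by 0.43, each with no overlap, while Cry1 rose by 0.48 and Per3 fell by 0.42. The time of day of tissue collection is not given in the sources used here.

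Of 24 immediate early genes 3 were lower (12.5%, near the 11.8% of all genes) and 1 higher (4.17%). Egr1 and Klf6, both zinc finger factors induced within minutes of a stimulus, fell by 0.81 and 0.56, and Myc fell by 0.37. Of 17 complement genes 3 were higher (17.6%, near the 15.1% of all genes) and 1 lower (5.88%): the protease C1s fell by 0.66, and the receptor C5ar1 rose by 0.42. Of 23 genes of TGF-beta and BMP signalling 3 were lower (13%, near the share of all genes) and 0 higher. The largest fall was that of Ltbp1 (-0.53), which stores latent TGF-beta in the matrix.

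The largest differences that did not pass were those of Glycam1, a ligand of L-selectin made by high endothelial venules (-1.58, adjusted p = 0.0588), and Thrsp, a regulator of lipid synthesis (-1.40). Heart genes followed, with Mb (myoglobin, 1.31), Myl7 (atrial myosin light chain, 1.30, adjusted p = 0.0552) and Myh6 (atrial myosin heavy chain, 1.15, adjusted p = 0.109). Myh6 read 7.89, 8.00, 3.54, 9.18 and 9.76 in controls and 9.21, 8.56, 8.65, 8.95 and 8.76 in exposed animals, so that control replicate 3 alone was far below the rest.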
